A study of Drosophila melanogaster with 8 samples.

Results

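*DnaJ-1* is the *Drosophila* gene for a stress-inducible co-chaperone of the Hsp40 class. It was represented on the array by 8 clones, which are all the clones that the platform annotation names *DnaJ-1* (Entrez gene 38643, locus CG10578, chromosome arm 3L in RefSeq) among 8448 clones, of which 2833 carry 1 gene symbol. Each clone was printed in 2 neighbouring spots, so the gene held 16 of 16896 spots. The rule that picks these clones uses the gene name and no measured value. Whether the 8 clones are different cDNAs or repeated prints of fewer cDNAs is not known here.

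Hsp40 proteins carry a J domain, a short helical segment that docks on Hsp70 and starts its hydrolysis of ATP, by which Hsp70 closes on an unfolded client protein. They also bind clients themselves and pass them on to Hsp70. In flies *DnaJ-1* is induced by heat through heat shock factor together with Hsp70, and it is known for limiting the toxicity of proteins with expanded polyglutamine.

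All RNA came from adult females of the wild-type strain Oregon-R, 4 to 10 days old, kept in 16 h of light and 8 h of dark at 60% relative humidity. The flies had been sprayed with 2 mL of 99% ethanol in a Potter's tower, a laboratory spraying device, and were sampled 6 h later. There were 8 pools of about 240 whole flies, hybridized in 4 fixed pairs (pools 1 and 2, 3 and 4, 5 and 6, 7 and 8), each pair on a normal-label array (odd pool in Cy3, even pool in Cy5) and on a reversed-label array with the dyes exchanged. Each label group thus held 4 arrays, there was no untreated group, and the design asks how much a ratio strays when both pools were treated alike.

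Values are the authors' log2 ratios, 1 per spot, after subtraction of each array's median and averaging of the 2 spots of a clone. The base of 2 was inferred from their size, and a value of 1 is a 2-fold ratio. The labels do not say which pool is the numerator of the ratio. Across all clones, arrays of opposite label from different pairs tended to correlate negatively (median r = -0.16 over 12 combinations, 9 of them below 0). The values were therefore read as 1 pool over the other on every array, so that the dye changes sides between label groups. This reading was taken from the same arrays that are tested below, so it places signal shared across pairs in the dye component. In pair 3, the array with reversed label correlated with the remaining 3 of its label group at -0.14 to 0.032 across all clones, while those correlated with each other at 0.12 to 0.36. Values without that array are given beside clone 8 and beside pair 3. A ratio gives no expression level, and with whole flies fewer cells of a type cannot be told apart from less RNA per cell.

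On single arrays the *DnaJ-1* clones lay close to 0 and on both sides of it. Of 64 clone values (8 clones on 8 arrays), 34 were above 0, none was past 2-fold, and the one farthest from 0 was 0.94. Over all clones, 12.8% were past 2-fold on at least 1 array. The clones are numbered 1 to 8 by their spots, which begin at 4625, 5687, 5831, 5903, 8039, 8303, 10195 and 14651.

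Clone 8 gave 0.71, 0.12, 0.72 and 0.37 on the normal-label arrays of pairs 1 to 4, and -0.18, -0.33, -0.014 and -0.12 on the reversed-label arrays. It was the only *DnaJ-1* clone whose label groups did not overlap (1 of 8, against 12.8% of all clones in either direction and 6.30% with normal label above reversed). Clone 3 gave 0.50, 0.61, 0.59 and 0.14 on the normal-label arrays, and 0.39, -0.011, -0.050 and -0.031 on the reversed-label ones. Its normal-label values were all above 0, while only pair 1 stood clearly above 0 with reversed label. Clone 7 gave 0.14, 0.94, 0.23 and 0.35 with normal label, and 0.00057, -0.038, 0.13 and 0.17 with reversed label. Clones 3, 7 and 8 were thus above 0 on all 4 normal-label arrays, and none of the other 5 clones was.

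Clone 1 was mostly below 0, at -0.18, -0.13, 0.068 and -0.45 with normal label and 0.50, -0.51, -0.20 and -0.15 with reversed label. Clone 4 gave 0.32, 0.039, -0.042 and 0.60 with normal label and -0.47, 0.44, -0.034 and -0.19 with reversed label. These clones had opposite signs on 6 of 8 arrays although they name the same gene. Clone 2 gave 0.14, -0.17, 0.049 and 0.37 with normal label and 0.20, -0.16, 0.49 and 0.25 with reversed label. Clone 5 gave 0.56, -0.22, -0.37 and -0.16 with normal label and 0.59, 0.16, -0.29 and 0.29 with reversed label. Clone 6 gave -0.36, 0.52, -0.32 and -0.24 with normal label and -0.052, -0.49, -0.011 and 0.40 with reversed label. The label groups of these 5 clones overlapped.

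**Figure D1:**
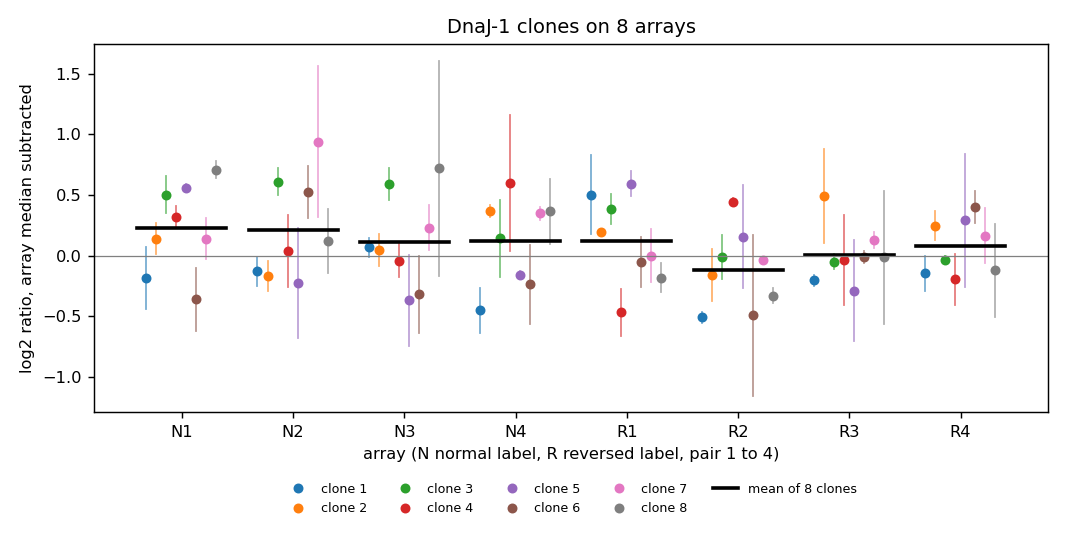
Log2 ratio of each *DnaJ-1* clone (vertical axis, array median subtracted) on the 8 arrays (horizontal axis, N for normal label and R for reversed label, pairs 1 to 4). Points are the mean of the 2 spots, thin lines join the 2 spots, and black bars are the mean of the 8 clones, which runs from -0.12 to 0.23 while single clones run from -0.51 to 0.94.

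As a gene, *DnaJ-1* averaged 0.23 ± 0.37 (mean ± SD over 8 clones), 0.21 ± 0.43, 0.12 ± 0.39 and 0.12 ± 0.37 on the normal-label arrays of pairs 1 to 4. On the reversed-label arrays it averaged 0.12 ± 0.36, -0.12 ± 0.33, 0.0028 ± 0.24 and 0.077 ± 0.23. The SD among clones exceeded the size of the mean on every array. Clones of a gene share their target RNA and are not replicates of a condition, so no test was run on these means.

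The 2 spots of a *DnaJ-1* clone often disagreed. They lay a median of 0.35 log2 units apart over 64 comparisons (range 0.020 to 1.77), against 0.19 for all clones of the array, and had opposite signs in 43.8% of comparisons, against 31.7% for all clones. Taken clone by clone, the median distance over 8 arrays was above the median of all clones (0.20) for 8 of 8 *DnaJ-1* clones. It was smallest for clone 2, at 0.25, where 62.6% of all clones lay lower, and largest for clone 5, at 0.79, where 99.5% lay lower.

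In 6 of the 64 comparisons the spots were more than 1 log2 unit apart, which held for 3.69% of comparisons over all clones. The widest was clone 8 on the normal-label array of pair 3, with 1.61 in one spot and -0.16 in the other. Clone 7 on the normal-label array of pair 2, the highest clone value of the gene, held 1.56 and 0.32. Clone 6 on the reversed-label array of pair 2 held -1.15 and 0.17. The highest single-spot values were therefore not repeated in the neighbouring spot. Spot intensities were not analysed here, so it is not known which of these spots were dim.

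The scatter among the 8 clones was about as wide as that among clones of different genes. The SD among *DnaJ-1* clones ran from 0.23 (reversed label, pair 4) to 0.43 (normal label, pair 2). The robust SD of all 8448 clones (from the median absolute deviation) ran from 0.21 to 0.49. Divided by it, the *DnaJ-1* SD had a median of 1.09 over 8 arrays (range 0.75 to 1.75) and was above 1 on 5 of 8 arrays. With 1 pair left out, this median lay between 0.97 and 1.28. The ordinary SD of all clones was larger than the robust one, at 0.28 to 0.61. The *DnaJ-1* SD was above it only on the normal-label arrays of pairs 2 and 4 and the reversed-label array of pair 1. The disagreement of the spots alone would give an SD among clone averages of 0.16 to 0.37. The observed SD was above this value on 6 of 8 arrays and below it on the reversed-label arrays of pairs 3 and 4.

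*RpL32*, a ribosomal protein gene with 9 clones, has about as many clones as *DnaJ-1*, but of the 9 other genes with at least 7 clones it is the one whose clones agree best (median uncentred correlation between its clones over 8 arrays of 0.40 against a median of 0.041 over the 9 genes and 0.056 for *DnaJ-1*). Its clones moved together on some arrays. On the reversed-label array of pair 4, 9 of 9 clones were above 0 (0.40 ± 0.13, mean ± SD over clones), and on the normal-label array of pair 1, 8 of 9 were below 0 (-0.27 ± 0.17). On no array did all 8 *DnaJ-1* clones share a sign, the most one-sided counts being 6 of 8 above 0 (normal label, pair 1) and 6 of 8 below 0 (reversed label, pairs 2 and 3). The SD among clones was larger for *DnaJ-1* than for *RpL32* on 7 of 8 arrays and in 4 of 4 pairs, by 0.12 ± 0.066 (SD, n = 4 pairs). A two-sided exact permutation test over the 4 pairs gave p = 0.125, the smallest p this design allows, so the difference could not pass 5%. The same clones recur in every pair, so this test does not measure variation between clones, and nothing is concluded from it. The *RpL32* clones also had closer duplicate spots, with a median distance of 0.18 against 0.38 for *DnaJ-1* clones (medians over clones), and the part of the spots in the difference between the genes was not tested.

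**Figure D2:**
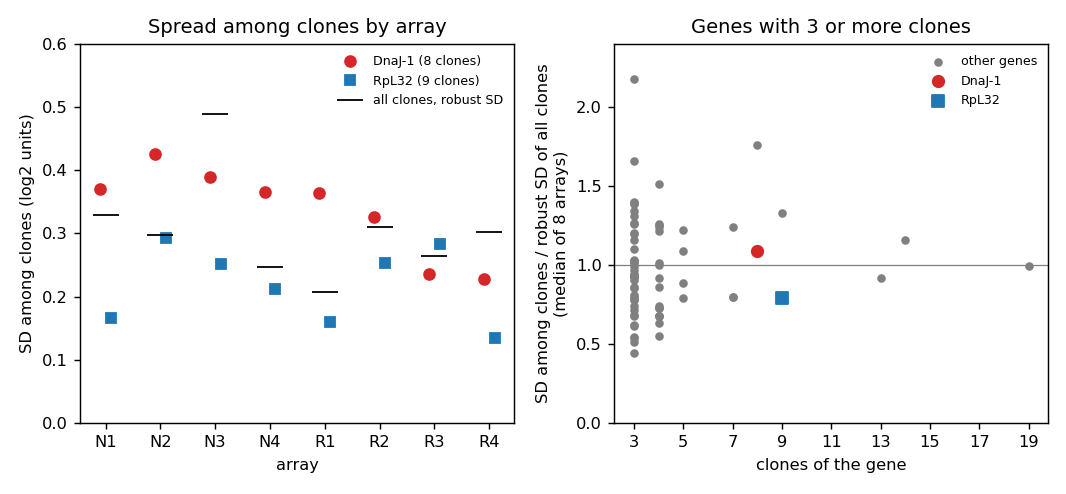
Left, SD among the clones of *DnaJ-1* and of *RpL32* on each array (log2 units), with the robust SD of all clones as black bars. Right, that SD divided by the robust SD of all clones (median of 8 arrays) against the number of clones, for each gene with at least 3 clones. *DnaJ-1* lies at 1.09 and *RpL32* at 0.79.

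Among the 71 other genes with at least 3 clones, the same ratio ranged from 0.44 to 2.18 with a median of 0.93, and 47 lay below *DnaJ-1*. Wide scatter among clones was thus common on this array. Of the 9 other genes with at least 7 clones, 5 lay below *DnaJ-1* and 4 above. These genes differ in the number, length and source of their clones, and they are given as a description.

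The clones also differed in their profile over the arrays. The uncentred correlation, which does not depend on how the arrays are oriented, was taken between every pair of clones over 8 arrays. Its median was 0.056 over 28 combinations of *DnaJ-1* clones, with 16 above 0. For *RpL32* the median was 0.40, with 35 of 36 above 0, and for the 71 other genes with at least 3 clones the median was 0.014, 29 of them above *DnaJ-1*. Clones 3 and 7 (0.72), 3 and 8 (0.69) and 7 and 8 (0.41) were the 3 most alike. Clones 1 and 4 were the least alike (-0.87). All points of a correlation share the 8 arrays and the 2 arrays of a pair share RNA, so no p-value is attached.

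**Figure D3:**
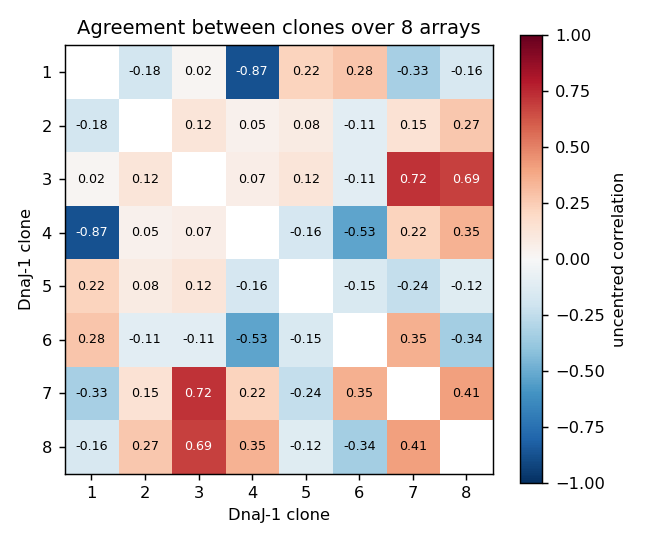
Uncentred correlation over 8 arrays between each pair of *DnaJ-1* clones, numbered on both axes. Red is above 0 and blue below; clones 3, 7 and 8 resemble each other (0.41 to 0.72), and clones 1 and 4 are opposed (-0.87).

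When the 64 values were split into their sources, 70.0% of the sum of squares belonged neither to a clone nor to an array. The array took 8.90%, the clone 13.7% and the common mean 7.43%, with signs as deposited. For *RpL32* the array took 46.4%. In dye orientation the shares for *DnaJ-1* were 11.8% (array), 16.8% (clone) and 66.9% (remainder). In either orientation an array thus set little of what a *DnaJ-1* clone read.

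Each pair of arrays gives a part that follows the dye when pools are exchanged (the dye component) and a part that stays with the pools (the pool component). In what follows, dye A stands for the dye that the numerator pool carried under normal label. A dye component above 0 is an excess in dye A, and a pool component above 0 an excess in the numerator pool.

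Clone 8 was the only *DnaJ-1* clone whose dye component passed. It stood at 0.45, 0.23, 0.37 and 0.24 in pairs 1 to 4, a mean of 0.32 ± 0.10 (SD, n = 4 pairs; limma adjusted p = 0.0358, adjusted over 8448 clones). All 4 pairs lay above 0 as averages of the 2 spots, but in pair 3 the spots were opposed. One spot gave 1.61 with normal and -0.56 with reversed label, the other -0.16 and 0.53. The median distance between the spots of clone 8 over the arrays was 0.54, where 95.1% of all clones lay lower. This 1 call of 8 compares with 8.56% of all clones called in either direction and 4.25% called towards dye A. The call ended with any 1 pair left out (limma adjusted p from 0.0673 without pair 4 to 0.165 without pair 1), with arrays scaled to one spread (0.0638) and with quantile normalization (0.0676). It also ended with 8 arrays taken as independent (0.102) and with single spots as rows (smallest limma adjusted p = 0.148). Over all clones the 723 dye calls fell as well, to 3 without pair 1, 4 without pair 2, 21 without pair 3 and 359 without pair 4. They fell to 286 with arrays scaled to one spread and to 270 with quantile normalization. If the ratios are read in the other direction, the call moved to the pool component, and the dye component had limma adjusted p = 0.821. The call stayed without the reversed-label array of pair 3, with the pair as a block (limma adjusted p = 0.0484). Over all clones 609 passed under that setting. Pair 3 then enters by its normal-label array alone, where the dye part and the pool part cannot be separated. That is also the array where the spots of clone 8 gave 1.61 and -0.16.

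The other 7 clones did not pass the dye test. Clone 3 (0.19 ± 0.14, SD, n = 4 pairs), clone 7 (0.18 ± 0.21) and clone 4 (0.15 ± 0.30) had means above 0, the first and second with 4 of 4 pairs above 0. Clone 5 stood at -0.12 ± 0.10 with 4 of 4 pairs below 0. Clone 2 (-0.048 ± 0.12), clone 1 (-0.042 ± 0.25) and clone 6 (-0.030 ± 0.37) had means near 0. In all, 4 of 8 clones kept a sign over the 4 pairs, against 34.5% of all clones, and 3 of 8 were above 0 in each, against 17.5%. An unadjusted p under 0.05 was reached by 2 of 8 in limma (clones 3 and 8), against 26.5%. The 95% limma interval of clone 5 reached from -0.28 to 0.045 and that of clone 8 from 0.16 to 0.48. These are the lowest and the highest clone of the gene, and the difference between clones was not tested.

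The pool component asks whether the numerator pool held more *DnaJ-1* RNA on average over the pairs. Since the parity of a pool number carries no treatment, it is a null comparison. Its calls depend on the reading of the direction, which was chosen from these arrays. Under the other reading 723 of all clones passed in the pool component and 0 in the dye component. Under the reading used here, 0 of 8 clones passed in limma, against 0% of all clones, and 2 of 8 had an unadjusted p under 0.05, against 5.34%. Those were clone 3 (0.27 ± 0.16, SD, n = 4 pairs) and clone 7 (0.24 ± 0.16), each above 0 in 4 of 4 pairs and each with limma adjusted p = 0.821. They were the only clones with 1 sign in all pairs, 2 of 8 against 14.5% of all clones and, above 0 only, 7.54%. Clone 8 (0.16 ± 0.20), clone 2 (0.15 ± 0.22), clone 4 (0.083 ± 0.16) and clone 5 (0.071 ± 0.38) lay above 0. Clone 1 (-0.13 ± 0.22) and clone 6 (-0.068 ± 0.14) lay below it. The 95% limma intervals of the 8 clones ran from -0.38 at the lowest (clone 1) to 0.49 at the highest (clone 3), so a mean pool difference above 0.49 log2 units lay outside the interval of each clone.

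**Figure D4:**
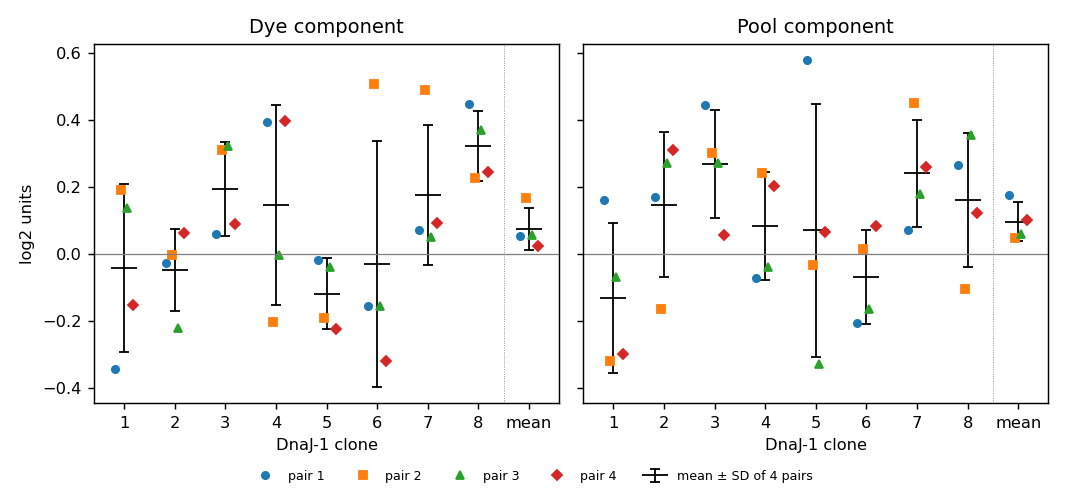
Dye component (left) and pool component (right) of each *DnaJ-1* clone in log2 units, with symbols for pairs 1 to 4 and the mean ± SD of the 4 pairs in black. The last column holds the mean of the 8 clones, which is above 0 in all 4 pairs in both panels (0.023 to 0.17 and 0.048 to 0.18).

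In each single pair of pools *DnaJ-1* did not differ past the threshold, and the clones disagreed on the direction. For pools 1 and 2 the pool component was 0.18 ± 0.26 (mean ± SD over 8 clones), with 6 of 8 clones above 0. Clone 5 stood highest at 0.58 (limma adjusted p = 0.45) and clone 6 lowest at -0.21. For pools 3 and 4 it was 0.048 ± 0.26, with 4 of 8 above 0, clone 7 at 0.45 and clone 1 at -0.32. The same clone thus did not lead in both pairs.

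For pools 5 and 6 it was 0.060 ± 0.24, with 4 of 8 above 0, clone 8 at 0.35 and clone 5 at -0.33. Clone 5, the highest in the first pair, was the lowest here. For pools 7 and 8 it was 0.10 ± 0.19, with 7 of 8 above 0, clone 2 at 0.31 and clone 1 at -0.30. In limma 0 of 8 clones passed in any pair, against 0% of all clones in pairs 1, 2 and 4 and 3.20% in pair 3. The 270 calls over all clones behind the last share became 0 with arrays scaled to one spread or quantile normalized. The normal-label array of that pair had the widest spread of the 8 arrays (robust SD of all clones 0.49). The calls became 87 without the reversed-label array of that pair, 2 without pair 1, 3 without pair 2 and 157 without pair 4. Without that array the mean of the *DnaJ-1* clones in pair 3 was 0.035 and clone 8 stood at 0.42, with 0 of 8 clones called. Unadjusted p under 0.05 was reached by 2, 1, 2 and 0 of 8 clones in pairs 1 to 4 (0 in pair 3 without its reversed-label array), against 6.50%, 7.40%, 23.8% and 5.36% of all clones. The F-test in limma, which asks whether the pools differed in any of the 4 pairs, passed 0 of 8 (0% of all clones). Clone 5 alone had an unadjusted p under 0.05 (1 of 8, limma adjusted p = 0.27), against 14.9% of all clones.

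Averaging the 8 clones brought the pairs closer together. The mean of the clones had a pool component of 0.096 ± 0.058 (SD, n = 4 pairs) and a dye component of 0.075 ± 0.063. The median SD over pairs of a single clone was 0.18 for the pool component and 0.18 for the dye component, larger by factors of 3.12 and 2.79. Errors that are independent between clones and of equal size would fall by a factor of 2.83 in a mean of 8. The SD of single clones was unequal, from 0.14 to 0.38 for the pool and from 0.10 to 0.37 for the dye component. Factors taken from the median SD therefore do not measure independence between clones. For *RpL32* the same factors were 1.38 and 1.15, where independence between 9 clones of equal error would give 3. These factors rest on 4 pairs, and their difference between the genes was not tested. Both means of *DnaJ-1* were above 0 in 4 of 4 pairs. Without clone 8 the mean dye component was 0.040, with pairs 1 and 4 at -0.0028 and -0.0083, so its sign in those pairs rested on that clone.

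The 5 genes most like *DnaJ-1* by the uncentred correlation of the clone mean over 8 arrays, out of 2376, were *Tim9a*, which encodes a small chaperone of mitochondrial protein import (0.93), *dnc*, the cyclic AMP phosphodiesterase (0.93), *U4-U6-60K*, a spliceosome component (0.91), *tkv*, a receptor for the growth factor Dpp (0.90), and *conu* (0.90). *RpL32* stood at 0.018, and 41 genes were above 0.8. Of the 5 genes, *tkv* had 2 clones and each of the others 1, and the profile they were matched to is a mean of clones that disagreed. All of these values share the same 8 arrays, so they are a description.

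The other chaperone genes give the setting in which *DnaJ-1* was read. Of 13 clones of 10 other genes with a J domain, 0 passed the dye test towards dye A and 1 towards dye B, against 4.25% and 4.31% of all clones, with a median of -0.063, against 0.0044 over all clones. The call belonged to 1 of 2 clones of *CG2887*, a J-domain gene (-0.34 ± 0.17, SD, n = 4 pairs, limma adjusted p = 0.0478). Its other clone gave -0.063 ± 0.11, and the call ended with any 1 pair left out (limma adjusted p from 0.0932 to 0.160), with arrays scaled to one spread (limma adjusted p = 0.1) or quantile normalized (0.0927). *Droj2* (0.19 ± 0.068), a DnaJ-like Hsp40, and *DnaJ-H* (0.22 ± 0.19) did not pass. The 3 clones of *CG8476*, also on the J-domain list, gave 0.083, 0.065 and 0.047 in the dye component, while on single arrays they scattered more widely than those of *DnaJ-1* (1.66 times the robust SD of all clones, against 1.09). Their pool components were 0.033, 0.19 and -0.48, and none passed.

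The partner chaperones of the Hsp70 family read differently. Of their 6 clones (*Hsc70-1*, *Hsc70-2* and *Hsp68*), 5 passed towards dye A, against 4.25% of all clones, with a median dye component of 1.04. Under the other reading of the direction these become calls in the pool component. The mean of the *DnaJ-1* clones was 0.075. Under scaling to one spread or quantile normalization 4 of these 5 calls were kept, and 1 *Hsc70-1* clone did not pass (limma adjusted p = 0.0625 and 0.0624). With pair 1 or pair 2 left out 1 of the 5 passed, and with pair 3 or pair 4 left out 4 passed. Over all clones 3 and 4 dye calls were left without pairs 1 and 2, and 21 and 359 without pairs 3 and 4. *Hsc70-2* belongs to the Hsp70 cognates, the relatives of Hsp70 made without heat, and its clones gave 1.63 ± 0.72 and 1.59 ± 0.41 (SD, n = 4 pairs). The 3 clones of *Hsc70-1* gave 0.90, 1.18 and 0.14, a wider range than the -0.12 to 0.32 of the *DnaJ-1* clones, and had the highest relative spread (2.18) among the genes with at least 3 clones. The difference between the genes was not tested.

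Of 8 clones of small and other heat shock proteins, 0 passed in either direction, against 8.56% of all clones (median 0.059). They were 5 clones of the Hsp60 chaperonin genes *Hsp60B*, *Hsp60C* and *Hsp60D*, and 1 each of *CG7409*, *CG4461* and the Hsp90 relative *Gp93*. Of 4 clones of co-chaperones and regulators, 1 passed (against the same 8.56%), *STUB1*, the ubiquitin ligase that acts on Hsp70 clients (-0.49 ± 0.15, SD, n = 4 pairs, limma adjusted p = 0.0189). It did not pass without pair 1, 2 or 3 (0.0967, 0.0857 and 0.0585), where 3, 4 and 21 of all clones passed. The clone of *stv*, the BAG-domain nucleotide exchange factor for Hsp70, stood at 0.070 ± 0.16. Of 6 clones of the cytosolic chaperonin (*CCT1*, *CCT2*, *CCT4*, *CCT5* and *CCT8*), 0 passed, with dye components from -0.16 to 0.26. In the pool component 0 clones of any of these lists passed in limma, as over all clones, and 1 of 13, 1 of 6, 0 of 8, 1 of 4 and 0 of 6 had an unadjusted p under 0.05 in the order given, against 5.34% of all clones. *CG2887* (1 of 2 clones, -0.92, limma adjusted p = 0.0370) and 2 clones of the Hsp70 family passed in pair 3, where 3.20% of all clones did. With arrays scaled to one spread or quantile normalized, 0 of all clones passed in pair 3.

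**Figure D5:**
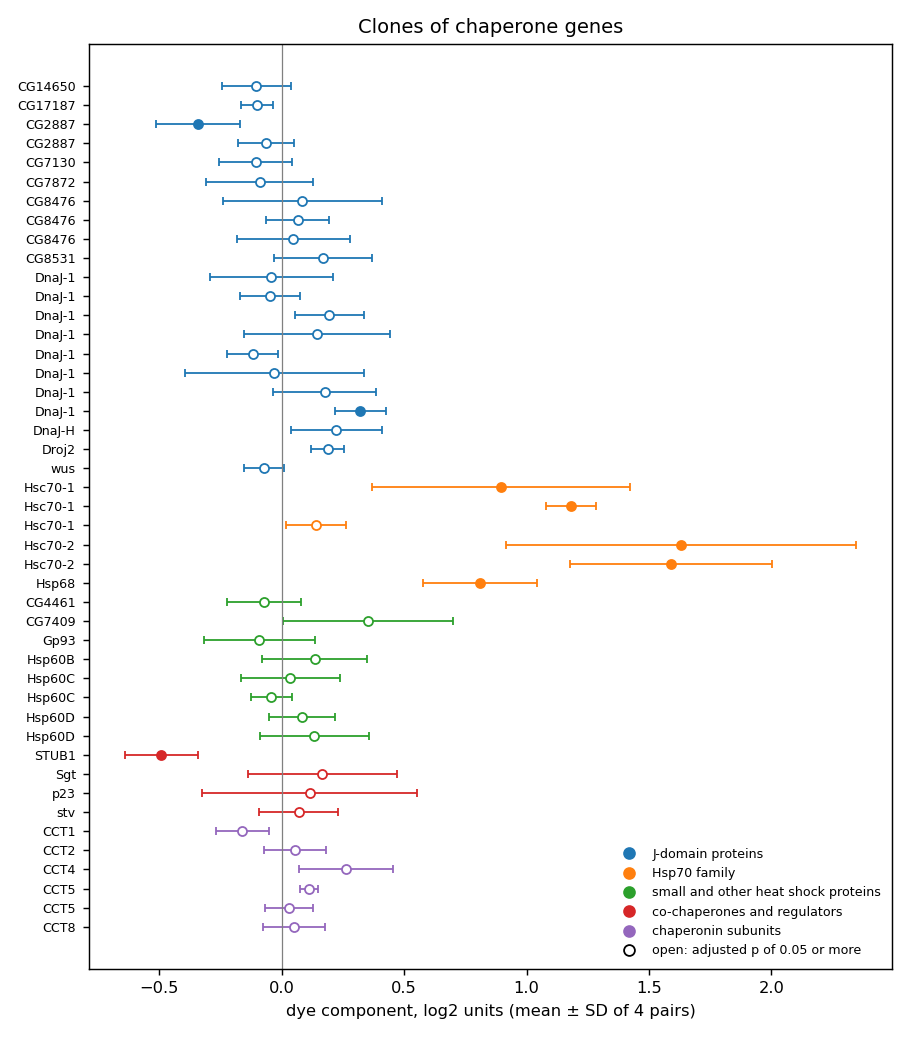
Dye component (mean ± SD of 4 pairs, log2 units, horizontal axis) of each clone of the chaperone genes, coloured by list. Filled points passed 5% in limma. The 8 *DnaJ-1* clones lie between -0.12 and 0.32 with 1 filled point, while 5 of 6 Hsp70 family clones lie between 0.81 and 1.63.

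Tissue markers were read in the same tests, since pools of whole flies could differ in makeup. Under the reading used here such a difference falls in the pool component and the pair coefficients, while the dye component follows the dye. In the dye test, where 8.56% of all clones passed, 1 of 4 clones for the ovary germline (towards dye B), 3 of 4 for muscle (*Tm2* at 1.10, *TpnC41C* at -0.69 and *TpnC73F* at -0.35), 2 of 4 for the nervous system (both towards dye B), 0 of 2 for the eye and 0 of 4 for the male reproductive tract passed, and no clone for fat body and yolk carried a symbol. In the pool component none passed in limma, and 2 of these 18 clones had an unadjusted p under 0.05, against 5.34%. In pair 3, 4 of the 18 passed, against 3.20%, and 0 of all clones passed there with arrays scaled to one spread or quantile normalized. Of the 6 dye calls, 0 were left without pair 1, 2 or 3, and 4 without pair 4, with arrays scaled to one spread or with quantile normalization. Their part in the values of *DnaJ-1* was not tested.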

How the data were processed

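Per the labels, RNA from each pool was labelled directly with Cy3 or Cy5 (80 µg of total RNA) and 2 pools were hybridized per array. The authors deposited 1 log2 ratio per spot, centred near 0 on each array. How background and dye bias were treated is not given in the sources used here. The base of 2 was inferred from the values. Depth is not defined for arrays, whose number limits the precision. Spots were named through the platform annotation and RefSeq (Entrez identifiers, all found). That table served for names and the chromosome arm.

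Array medians were subtracted, duplicate spots averaged, and reversed-label arrays turned in sign for the dye component. All tests ran over 8448 clones with lmFit and eBayes of limma 3.58.1 under R 4.3.3, with Benjamini-Hochberg adjustment at 5%. Dye and pool components were tested against 0 over 4 pairs, since both arrays of a pair carry the same RNA. The F-test and the pair coefficients used all 8 arrays with a common dye term, and their error is technical. The tests were checked on simulated data. The members, the gene lists and the tests were chosen with earlier results of these data known. Named genes are the *DnaJ-1* clones, the 5 most alike genes, members of the chaperone lists and genes with at least 3 clones for the spread. Alternatives covered centring, scaling, quantile normalization, single spots, robust eBayes, a local median of 20 flanking clones, the other reading of the direction, a 1% threshold, left-out pairs and the pair as a block.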

Additional observations from a re-analysis of the deposited data

Results flagged for a closer look

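Among 36 groups of 4 values (8 clones and their mean, each for the 2 label groups and the 2 components), 3 held a value far from the other 3, and chance gives about 1 in 20. Clone 3 stood at 0.39 on the reversed-label array of pair 1, with the other reversed-label arrays between -0.050 and -0.011. Clone 6 stood at 0.52 on the normal-label array of pair 2, with the others between -0.36 and -0.24. Clone 7 had a dye component of 0.49 in pair 2, with the others between 0.050 and 0.092. Clone 8 was above 0 on every normal-label and below 0 on every reversed-label array, a dye component of 0.32, as tested in the report.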

How the results depend on the processing

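The 1 *DnaJ-1* call in the dye component went to 0 with arrays scaled to one spread, quantile normalization, single spots as rows, a 1% threshold, the other reading of the direction, any pair left out (0 to 0), and 8 arrays taken as independent. With the pair as a replicate block it stayed 1 of 8 (limma adjusted p = 0.0278), where 826 of 8448 clones passed. The correlation fitted within pairs was -0.27, so this setting was less strict than 8 arrays taken as independent (0 of all clones). The call also stayed 1 of 8 with no centring, robust eBayes, the local median, and pair 3 by its normal-label array alone. Under those settings 605 to 745 of all clones passed. Under the other reading the pool component took the call (1 of 8). In the other alternatives to the pool component, and in those to the F-test and the pair coefficients, no *DnaJ-1* clone passed. Over all clones the dye calls ranged from 0 to 826 (723 as reported), the pool calls from 0 to 723, the F-test calls from 0 to 8 and the pair 3 calls from 0 to 297. Clones near 0 turned in sign without passing. In the dye component, clones 1 and 2 came to 0.084 and 0.068 with the local median, and clones 2 and 5 to 0.15 and 0.071 under the other reading. With a pair left out, clone 1 ranged from -0.12 to 0.058, clone 2 from -0.084 to 0.010 and clone 6 from -0.21 to 0.066. In the pool component, clone 4 came to -0.0081 with the local median, and clone 5 ranged from -0.098 to 0.20 with a pair left out. The cause of these changes was not tested. Under the other reading the dye and pool components exchange their values by definition. Clones 2 and 5 thus came to 0.15 and 0.071 in the dye component, and to -0.048 and -0.12 in the pool component. The mean of the 8 clones stayed above 0 in each alternative (0.040 to 0.096 for the dye, 0.069 to 0.11 for the pools), and the relative spread among clones stayed within 0.97 to 1.28. Dropping the array of pair 3 with reversed label for results other than the dye component, and the mean without clone 8, were chosen after seeing the data.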

Other observations

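Most *DnaJ-1* clones lay at a set distance from an *RpL32* clone in the order of the spots. Counted in clones along the spot numbers, 6 of the 8 *DnaJ-1* clones (1 to 6) lay exactly 2112 positions, a fixed step, after an *RpL32* clone. The uncentred correlation over 8 arrays between the clones so matched ran from -0.035 to 0.54, with a median of 0.37, against a median of -0.059 over all 72 combinations of a *DnaJ-1* and an *RpL32* clone. The matched clones were picked out after the spot numbers were seen, all values share the 8 arrays, and no test was run. Clones of other genes at that step were not compared. None of the 8 *DnaJ-1* and none of the 9 *RpL32* clones carries an accession in the annotation, while 2359 of 2833 clones with 1 symbol do, so which stretch of the cDNA each clone holds is not known here.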
